A study of Homo sapiens with 10 samples.

Results

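The 39 genes described here are the ribosome biogenesis and nucleolar genes *POLR1A*, *POLR1B*, *TCOF1* and *MYBBP1A* (RNA polymerase I transcription), *FBL*, *NOP56*, *NOP58* and *RRP9* (box C/D particles), *DKC1*, *GAR1*, *NHP2*, *NOP10* and *NOLC1* (box H/ACA particles and their chaperone), *NOP14*, *WDR43*, *UTP20*, *HEATR1*, *BYSL*, *PNO1*, *RRP12*, *NAT10* and *DDX10* (small subunit assembly), *NOP2*, *NOP16*, *RRS1*, *BOP1*, *PES1*, *WDR12*, *WDR74*, *NIP7*, *MRTO4*, *GNL3*, *PPAN* and *DDX18* (large subunit assembly) and *NCL*, *NPM1*, *DDX21*, *PA2G4* and *LYAR* (abundant or multifunctional nucleolar proteins). They were taken by symbol from the 59386 genes listed in every count file, and all 39 were among the 16899 genes that passed the filter on low counts. The RNA came from VCaP, an epithelial cell line established from a prostate cancer, which was transfected with siRNA by a lipid reagent and harvested at 72 h. Depleted cells received 30 pmol of siRNA against *SMARCA4* (siRNA A or siRNA B) or against *SMARCA1* (siRNA A or siRNA C). *SMARCA4* encodes an ATPase of the BAF remodeling complex and *SMARCA1* an ISWI family ATPase. Control cells were harvested at the same time, and the dose and sequence of what they received are not given for these libraries in the sources used here. Each of the 5 conditions had 2 libraries, with total counts between 23898545 and 34667965. Nothing in the labels says that the 2 libraries of a condition came from separate cultures, so the p-values measure the spread between these libraries, which may be technical.

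Ribosomes are built in the nucleolus, where RNA polymerase I transcribes the large ribosomal RNA precursor. Box C/D particles guide 2'-O-methylation of this precursor and box H/ACA particles guide its pseudouridylation, while assembly factors cleave and fold it into the small and the large subunit. Many of the genes for these factors are textbook targets of the transcription factor MYC, which with its partner MAX binds the E-box, and growing cancer cells express them at high levels.

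The E-box letters are shown first because they are the sequence feature by which these genes are often grouped. The letters CACGTG, which read the same on both strands, were searched in RefSeq promoter windows of GRCh38.p14 (250 bases before to 50 after a start), in which 32 of the 39 genes were found. Of these 32 genes, 17 held the E-box (53.1%), against 30 of 107 other ribosome biogenesis genes (28%), 1349 of 10997 protein-coding genes tested (12.3%) and 2396 of all 27305 genes of the table (8.77%). The stretches below are those of the members with an E-box whose levels are given by library further on, each in the direction of its gene with the E-box in capitals.
MYBBP1A: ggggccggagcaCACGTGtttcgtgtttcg
FBL: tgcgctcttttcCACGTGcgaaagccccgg
NOP10, distal: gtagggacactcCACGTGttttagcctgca
NOP10, proximal: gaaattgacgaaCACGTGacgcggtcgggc
WDR43: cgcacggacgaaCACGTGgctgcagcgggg
GNL3: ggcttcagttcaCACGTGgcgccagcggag
DDX21: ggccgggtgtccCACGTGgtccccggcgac
UTP20: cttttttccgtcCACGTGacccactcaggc
PES1: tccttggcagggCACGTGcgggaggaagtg
LYAR: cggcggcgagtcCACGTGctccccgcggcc
They lie at chr17:4555340-4555369 (minus strand), chr19:39846356-39846385 (minus), chr15:34343289-34343318 and chr15:34343130-34343159 (both minus), chr2:28894658-28894687 (plus), chr3:52686026-52686055 (plus), chr10:68956604-68956633 (plus), chr12:101280083-101280112 (plus), chr22:30591880-30591909 (minus) and chr4:4290068-4290097 (minus), in the same order. The stretches of *MYBBP1A*, *GNL3*, *DDX21*, *PES1* and *LYAR* lie wholly in counted exons of their own gene, and that of the distal *NOP10* site shares 4 bases with an exon of *NUTM1* on the other strand. *NOP10* was the only member with 2 E-boxes, which began 170 and 11 bases before its start. A match of these letters is a description of the window and does not show that anything binds there.

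As a check of the labels, *SMARCA4* was at 242 and 268 CPM (counts scaled to a common library size) in the control, between 228 and 250 CPM in *SMARCA1* knockdown and between 13.3 and 25.2 CPM in *SMARCA4* knockdown. *SMARCA1* was at 32.3 and 31.5 CPM without depletion, between 1.75 and 3.4 CPM in its own knockdown and between 57.4 and 83.8 CPM in *SMARCA4* knockdown, where it rose by a log2 fold change of 1.07 (adjusted p = 0.001, edgeR quasi-likelihood test). The prostate epithelial marker *KLK3* and *ERG*, which VCaP expresses from a gene fusion, were detected in every library. Of 9 markers of other cell types between 6 and 7 were below 1 CPM in each library, and the leukocyte marker *PTPRC* was at 0 in 9 of the 10. The rest of these markers were at 1 CPM or more, and the 9 summed to between 6.98 and 20.7 CPM in a library. All 30 interferon response genes of the list used were higher in each knockdown, and their summed level was 433.2 and 438.8 CPM in the control libraries against 17500 to 47340 CPM in the 8 knockdown libraries. The part of this response in the results that follow was not tested. Within each pair of libraries the counts differed by more than sampling noise, most of all between those of *SMARCA1* siRNA A (chi-square per gene 57.2) and least between those of siRNA C (3.73).

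In *SMARCA4* knockdown nearly all members were lower than in the control. The edgeR test, adjusted over all genes tested, called 35 of the 39 lower and 0 higher at an adjusted p below 0.05, against 22.3% of all genes called lower and 22.8% called higher. The median log2 fold change of the members was -0.82, beside 0.00 over all genes tested, and the members ranged from -1.46 for *NHP2* to 0.05 for *NOP10*. For 37 members all 4 *SMARCA4* libraries lay below both control libraries, a pattern that 29% of all genes tested showed. The exceptions were *TCOF1* and *NOP10*. Of the 35 calls, 29 were made in each of the 18 alternative analyses judged by adjusted p alone. *DDX10*, *GNL3*, *POLR1B*, *UTP20*, *PNO1* and *RRP12* each lost theirs in at least 1. Of those 29, *NAT10* (-0.46) lost its call when a log2 fold change beyond 0.5 was also required. Because whole cultures were sequenced, fewer cells expressing a gene and less RNA per cell cannot be told apart.

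In *SMARCA1* knockdown 13 members were called lower and 0 higher, where 23% of all genes were called lower and 23.8% higher. The share of members called lower (13 of 39) thus stood nearer to that of all genes, and the median log2 fold change of the members was -0.15 beside 0.00 over all genes. The called members were *MYBBP1A*, *FBL*, *NOP56*, *DKC1*, *NHP2*, *NOLC1*, *NOP14*, *UTP20*, *HEATR1*, *NOP2*, *WDR12*, *NPM1* and *DDX21*. Without control replicate 1, or without control replicate 2, this count was 5. The calls of *UTP20*, *HEATR1*, *WDR12* and *DDX21* were made in every alternative. For 19 members all 4 *SMARCA1* libraries lay below both controls, where 29.1% of all genes did so, and for *DDX10* and *PES1* all 4 lay above both controls, again as did 29.1% of all genes.

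**Figure D1:**
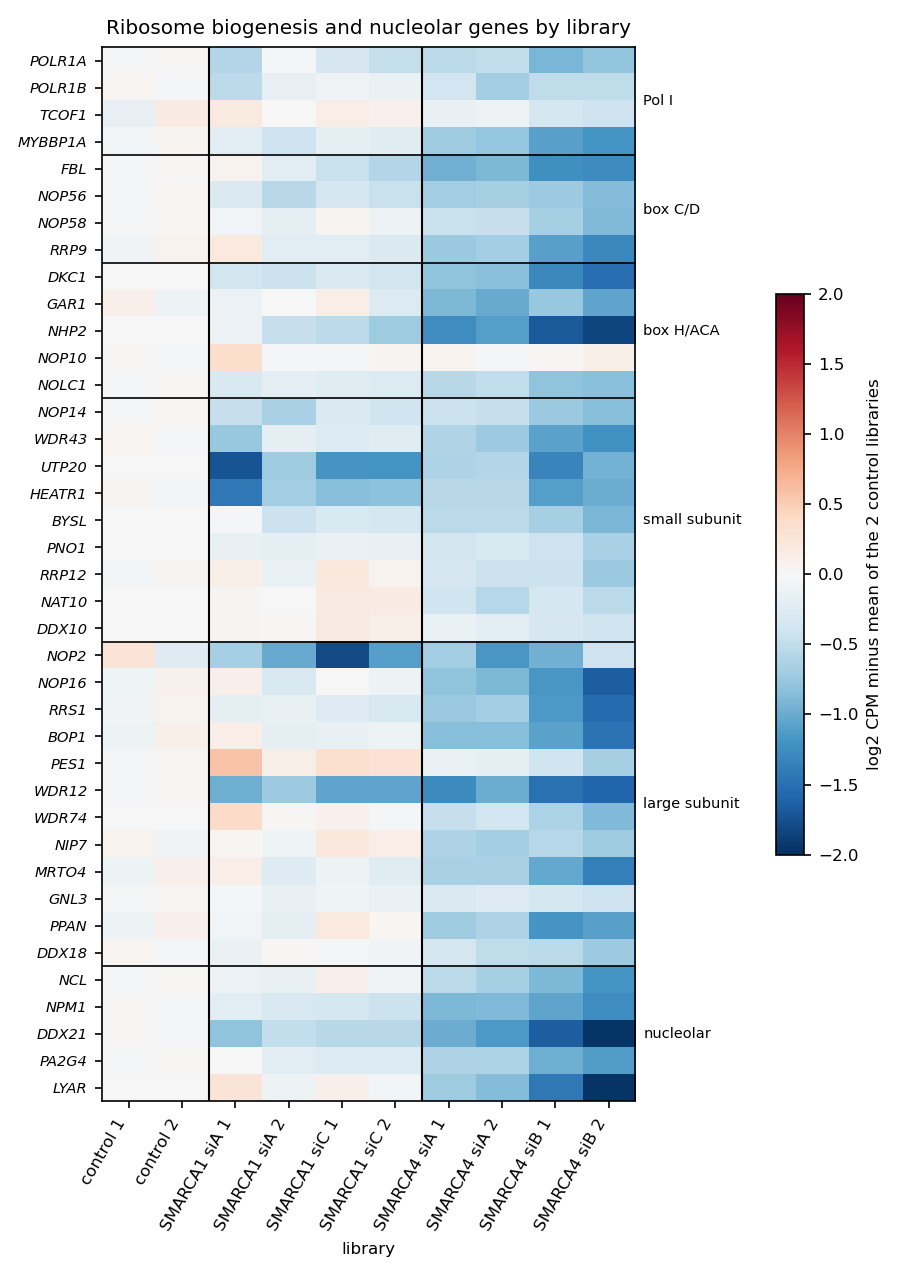
Heat map of the 39 members (rows, ordered by role) in the 10 libraries (columns), with colour for log2 CPM minus the mean of the 2 control libraries. The 4 *SMARCA4* libraries at the right are blue for nearly all genes, with *NOP10* the main exception, whereas in the *SMARCA1* libraries the strongest blue is in *UTP20*, *HEATR1*, *NOP2* and *WDR12*.

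The 2 knockdowns share their control libraries, so the difference between them was tested directly between the knockdown libraries. Relative to *SMARCA1* knockdown, 34 members were lower and 0 higher in *SMARCA4* knockdown, against 19.1% and 16.3% of all genes, with a median log2 difference of -0.56. For 30 members all *SMARCA4* libraries lay below all *SMARCA1* libraries, as they did for 13.8% of all genes. Those without a call were *NOP10* (-0.05), *NOP14* (-0.17), *UTP20* (0.30), *HEATR1* (0.13) and *NOP2* (0.38).

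The RNA polymerase I group had a median log2 fold change of -0.60 in *SMARCA4* knockdown, with 3 of 4 genes called lower. *MYBBP1A*, a nucleolar MYB-binding protein (chr17:4538897-4555386, GRCh38), was at 136 and 148 CPM in both control libraries, 121 and 107 with *SMARCA1* siRNA A, 123 and 120 with *SMARCA1* siRNA C, 87.0 and 83.1 with *SMARCA4* siRNA A and 66.7 and 62.2 with *SMARCA4* siRNA B. The 3 sets of libraries did not overlap. Its log2 fold change was -0.94 ± 0.09 (SE, adjusted p = 4.34e-05) after *SMARCA4* depletion and -0.27 (adjusted p = 0.0354) after *SMARCA1* depletion, the latter lost in 11 of 18 alternatives. *TCOF1*, which encodes treacle, a factor for ribosomal RNA gene transcription (chr5:150357629-150400308), was at 122 and 153 CPM in the controls, 155 and 137 with *SMARCA1* siRNA A, 149 and 145 with *SMARCA1* siRNA C, 123 and 128 with *SMARCA4* siRNA A and 107 and 102 with *SMARCA4* siRNA B. Its control libraries were apart by more than the 4 *SMARCA1* libraries, and only with *SMARCA4* siRNA B did both libraries lie below them. The log2 fold change of *TCOF1* was -0.27 (adjusted p = 0.0692) in *SMARCA4* and 0.09 (adjusted p = 0.52) in *SMARCA1* knockdown, and it differed between the knockdowns by -0.36 (adjusted p = 0.012). The 2 largest subunits of RNA polymerase I were lowered less than *MYBBP1A*: *POLR1A*, the catalytic subunit, by a log2 fold change of -0.68 and *POLR1B* by -0.52 in *SMARCA4* knockdown, with -0.35 and -0.22 (neither called) in *SMARCA1* knockdown.

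All 4 box C/D proteins were called lower in *SMARCA4* knockdown (median -0.84). *FBL*, fibrillarin, the methyltransferase of these particles (chr19:39834458-39846379), was at 179 and 184 CPM in the controls, 191 and 155 with *SMARCA1* siRNA A, 133 and 121 with *SMARCA1* siRNA C, 93.0 and 97.4 with *SMARCA4* siRNA A and 77.4 and 75.9 with *SMARCA4* siRNA B. Each *SMARCA4* library thus had less *FBL* than each other library, while 1 of the libraries of *SMARCA1* siRNA A was above the controls. The log2 fold change was -1.09 ± 0.10 (SE, adjusted p = 3.33e-05) in *SMARCA4* and -0.29 (adjusted p = 0.0384) in *SMARCA1* knockdown, and the latter call was lost in 11 of 18 alternatives. *NOP58*, one of the paired scaffold proteins of the particle (chr2:202265736-202303661), was at 84.8 and 87.7 CPM in the controls, 83.2 and 75.4 with *SMARCA1* siRNA A, 90.0 and 80.3 with *SMARCA1* siRNA C, 63.0 and 62.6 with *SMARCA4* siRNA A and 54.4 and 46.7 with *SMARCA4* siRNA B. It was the least lowered of the group, at a log2 fold change of -0.61 (adjusted p = 0.00078) in *SMARCA4* and -0.07 (adjusted p = 0.59) in *SMARCA1* knockdown. Its partner scaffold *NOP56* was at -0.74 and -0.40, both called, and *RRP9*, the protein specific to the U3 particle, was at -0.95 (called) and -0.12 (not called).

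Among the box H/ACA proteins, 4 of 5 were called lower in *SMARCA4* knockdown (median -0.93), and the core proteins of this 1 particle spanned the whole range of the members. *NHP2*, a core protein (chr5:178149463-178153894), was at 145 and 148 CPM in the controls, 136 and 107 with *SMARCA1* siRNA A, 102 and 89.4 with *SMARCA1* siRNA C, 61.6 and 68.1 with *SMARCA4* siRNA A and 45.9 and 41.2 with *SMARCA4* siRNA B. The *SMARCA4* libraries stood at 37.0% of the control mean on average, the lowest of all members, at a log2 fold change of -1.46 ± 0.11 (SE, adjusted p = 1.46e-05), and the change in *SMARCA1* knockdown was -0.44 (adjusted p = 0.011). Since 28.9% of its exon bases overlap *RMND5B* on the other strand, reads of these 2 genes can be separated only if the counting used strand. *NOP10*, the smallest core protein (chr15:34341719-34343136), was at 60.2 and 58.5 CPM in the controls, 75.4 and 58.3 with *SMARCA1* siRNA A, 58.5 and 61.9 with *SMARCA1* siRNA C, 62.1 and 58.7 with *SMARCA4* siRNA A and 60.6 and 64.4 with *SMARCA4* siRNA B. The groups overlapped throughout. The 95% interval of the log2 fold change of *NOP10* ran from -0.20 to 0.30 in *SMARCA4* knockdown and from -0.16 to 0.35 in *SMARCA1* knockdown, so that a change of the size seen in *NHP2* lies outside it. Without *SMARCA1* siRNA A replicate 2 it was called higher in *SMARCA1* knockdown (0.21, adjusted p = 0.0396). *DKC1*, dyskerin, the pseudouridine synthase, was at -1.11 and -0.37, both called, *GAR1*, the remaining core protein, at -0.93 (called) and -0.06 (not called), and *NOLC1*, the nucleolar chaperone also known as Nopp140, at -0.67 and -0.25, both called, the latter lost in 9 of 18 alternatives.

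**Figure D2:**
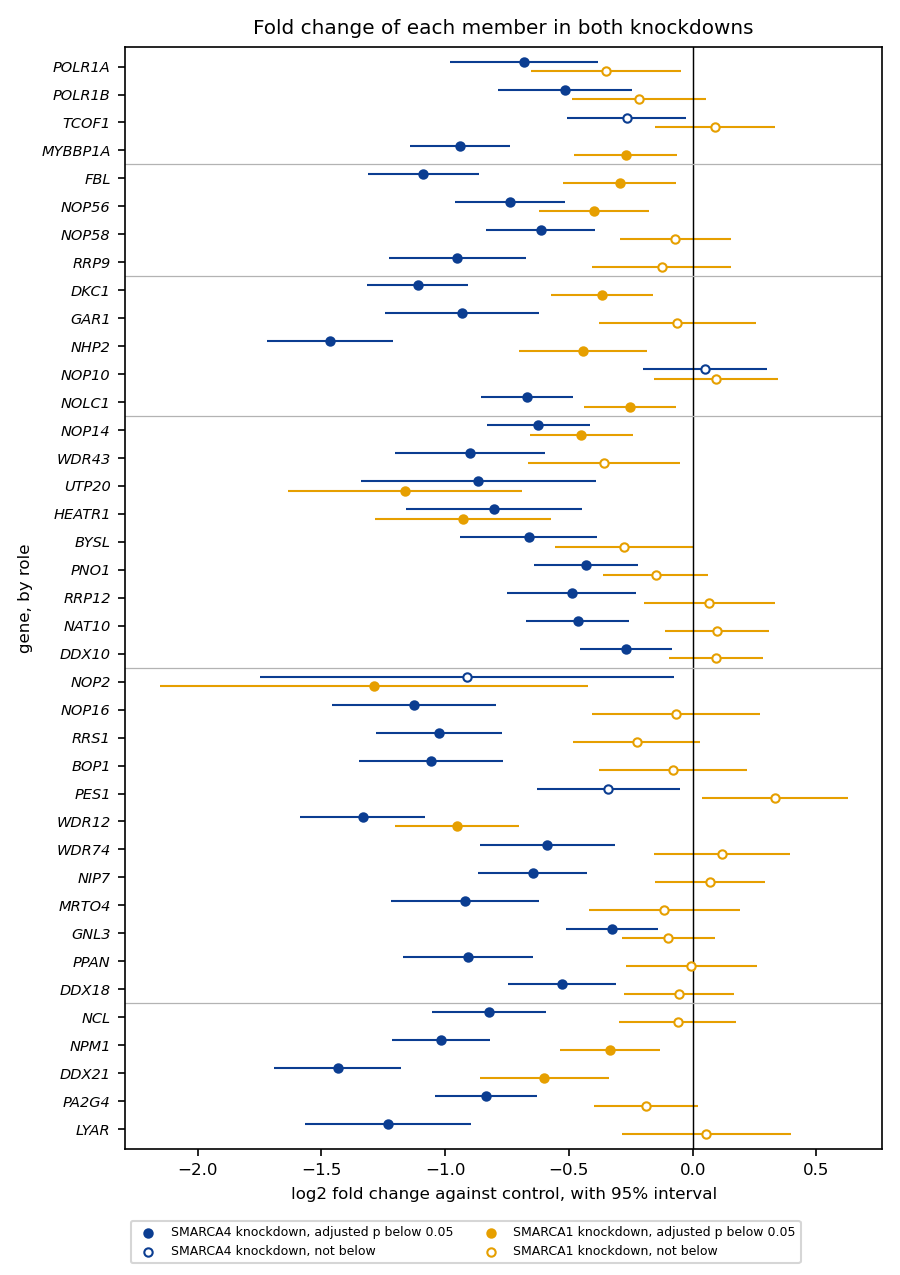
Log2 fold change against the control (horizontal axis) of each member (vertical axis, by role) in *SMARCA4* (blue) and *SMARCA1* (orange) knockdown, with 95% intervals and filled points where the adjusted p was below 0.05. *NHP2* and *NOP10*, of the same particle, mark the lowest (-1.46) and the highest (0.05) values in *SMARCA4* knockdown.

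The 9 small subunit factors were all called lower in *SMARCA4* knockdown, with a smaller median (-0.62). *WDR43*, a component of the small subunit processome (chr2:28894667-28948219), was at 124 and 118 CPM in the controls, 71.3 and 105 with *SMARCA1* siRNA A, 99.7 and 102 with *SMARCA1* siRNA C, 79.9 and 73.2 with *SMARCA4* siRNA A and 57.8 and 52.0 with *SMARCA4* siRNA B. All 8 knockdown libraries were below the controls, and *SMARCA1* siRNA A replicate 1 lay below both of *SMARCA4* siRNA A. The log2 fold change was -0.90 (adjusted p = 0.000559) in *SMARCA4* and -0.36 (adjusted p = 0.0559) in *SMARCA1* knockdown, the latter called in 6 of 18 alternatives. *DDX10*, a DEAD-box helicase (chr11:108665069-108940927), was at 66.7 and 67.7 CPM in the controls, 69.8 and 68.1 with *SMARCA1* siRNA A, 76.2 and 73.0 with *SMARCA1* siRNA C, 61.0 and 58.2 with *SMARCA4* siRNA A and 53.3 and 50.9 with *SMARCA4* siRNA B. It lay below the controls in *SMARCA4* and above them in *SMARCA1* libraries without overlap. The fitted change was -0.27 (adjusted p = 0.0244), a call lost in 9 of 18 alternatives, against 0.09 (adjusted p = 0.386), and the difference between the knockdowns was -0.36 (adjusted p = 0.00323).

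*UTP20* and *HEATR1*, both components of the small subunit processome, were the members of this group lowered in *SMARCA1* knockdown at least as far as in *SMARCA4* knockdown. *UTP20* (chr12:101280105-101386618) was at 74.4 and 75.3 CPM in the controls, 22.6 and 45.5 with *SMARCA1* siRNA A, 33.0 and 32.7 with *SMARCA1* siRNA C, 48.6 and 49.7 with *SMARCA4* siRNA A and 30.0 and 38.7 with *SMARCA4* siRNA B. The log2 fold change was -1.16 ± 0.21 (SE, adjusted p = 0.00168) in *SMARCA1* and -0.87 (adjusted p = 0.00805) in *SMARCA4* knockdown, where the call was lost without control replicate 1 (adjusted p = 0.0641) or control replicate 2 (adjusted p = 0.063). *HEATR1* was at -0.93 (adjusted p = 0.00121) in *SMARCA1* and -0.80 (adjusted p = 0.00263) in *SMARCA4* knockdown, and shares 23.1% of its exon bases with *LGALS8* on the other strand. The direct difference between the knockdowns was not called for either, with 95% intervals reaching 0.70 and 0.43 at the upper end, except that both were called higher in *SMARCA4* knockdown without *SMARCA1* siRNA A replicate 2 (0.60 and 0.34), and *UTP20* with no filter on low counts (0.32, adjusted p = 0.0241). The other small subunit factors in *SMARCA4* and *SMARCA1* knockdown were at -0.62 and -0.45 for *NOP14*, an early processome protein (both called), at -0.66 and -0.28 for *BYSL*, at -0.43 and -0.15 for *PNO1*, at -0.49 and 0.07 for *RRP12*, which takes part in export of the pre-40S particle, and at -0.46 and 0.10 for *NAT10*, the cytidine acetyltransferase of 18S rRNA. Only the first values of these last 4 were called. *NOP14* shares 20.7% of its exon bases with *NOP14-AS1* on the other strand.

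Exon length moved with the *SMARCA1* fold changes over the protein-coding genes tested. Among the longest quartile of protein-coding genes tested (at least 7873 exon bases) the median log2 fold change in *SMARCA1* knockdown was -0.11, against 0.13 in the shortest quartile, whereas in *SMARCA4* knockdown the same medians were 0.01 and 0.02. The trend was strongest in *SMARCA1* siRNA A replicate 1 (-0.30 against 0.26). *UTP20* (10030 bases), *WDR12* (9066) and *HEATR1* (9061) were in the longest quartile. From the shortest to the longest quartile 2 of 14, 6 of 13, 1 of 2 and 4 of 10 members were called lower in *SMARCA1* knockdown. Of all protein-coding genes tested, 15.5%, 21.3%, 25.7% and 30.6% were. The log2 fold changes of *UTP20*, *WDR12* and *HEATR1* were each at least as low as -0.93, where the median of the longest quartile was -0.11. The part of length in the members' changes was not tested. In *SMARCA4* knockdown the median of the members was -0.93 in the shortest and -0.74 in the longest quartile.

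The 12 large subunit factors had a median log2 fold change of -0.91 in *SMARCA4* knockdown, with 10 called lower, and of -0.07 in *SMARCA1* knockdown, with 2 called lower. *WDR12* (chr2:202874261-203014798), of the PeBoW complex that processes the large subunit precursor, was at 38.0 and 39.05 CPM in the controls, 19.6 and 23.2 with *SMARCA1* siRNA A, 18.6 and 18.5 with *SMARCA1* siRNA C, 15.9 and 19.4 with *SMARCA4* siRNA A and 13.6 and 12.8 with *SMARCA4* siRNA B. All knockdown libraries were far below the controls, and 1 library of *SMARCA4* siRNA A reached the *SMARCA1* range. The log2 fold change was -1.33 ± 0.11 (SE, adjusted p = 2.13e-05) in *SMARCA4* and -0.95 (adjusted p = 0.000176) in *SMARCA1* knockdown. The other PeBoW proteins differed from it. *BOP1* was at -1.06 (called) and -0.08 (not called), and *PES1* was the sole member with its 4 *SMARCA4* libraries below and its 4 *SMARCA1* libraries above the controls apart from *DDX10*. Taken singly, these positions were shown by 29% and 29.1% of all genes, and the share of all genes with both was not determined.

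*PES1* was at 102 and 106 CPM in the controls, 155 and 113 with *SMARCA1* siRNA A, 129 and 127 with *SMARCA1* siRNA C, 95.3 and 92.0 with *SMARCA4* siRNA A and 78.7 and 65.4 with *SMARCA4* siRNA B. Neither change against the control was called (-0.34, adjusted p = 0.0541, and 0.33, adjusted p = 0.0632), although the first was called in 6 of 18 alternatives and the second in 2, and the difference between the knockdowns was -0.67 (adjusted p = 0.00128). *GNL3*, nucleostemin, a nucleolar GTPase (chr3:52681156-52694497), was at 282 and 290 CPM in the controls, 279 and 259 with *SMARCA1* siRNA A, 271 and 261 with *SMARCA1* siRNA C, 235 and 240 with *SMARCA4* siRNA A and 223 and 216 with *SMARCA4* siRNA B. Its changes were small but the 3 sets of libraries did not overlap, at a log2 fold change of -0.33 (adjusted p = 0.00985, a call lost in 3 of 18 alternatives) in *SMARCA4* and -0.10 (adjusted p = 0.36) in *SMARCA1* knockdown.

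The remaining large subunit factors were called lower in *SMARCA4* knockdown except for *NOP2*. In *SMARCA4* and *SMARCA1* knockdown, *NOP16* was at -1.13 and -0.07, *RRS1*, which helps to place the 5S particle, at -1.02 and -0.23, *MRTO4* at -0.92 and -0.11, *PPAN* at -0.91 and -0.00, *NIP7* at -0.65 and 0.07, *WDR74* at -0.59 and 0.12 and *DDX18*, a DEAD-box helicase, at -0.53 and -0.06, and none of the second values was called. *NOP2*, a cytosine methyltransferase of 28S rRNA, had only 119 counts in the 10 libraries together. Of its exon bases 54.4% are shared on the same strand with *RP5-940J5.10*, which had 0 counts, so the low count need not be its level, and its values of -0.91 (adjusted p = 0.0718) and -1.29 (adjusted p = 0.0209) are uncertain. *PPAN* shares 47.6% of its exon bases with the readthrough *PPAN-P2RY11*, which had 0 counts. On the other strand *NIP7* shares 18.4% of its exon bases with *COG8*, and *NOP16* shares 12.2% with *ARL10* and 6.29% with *HIGD2A*. Reads of these genes, too, can be separated only if the counting used strand.

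**Figure D3:**
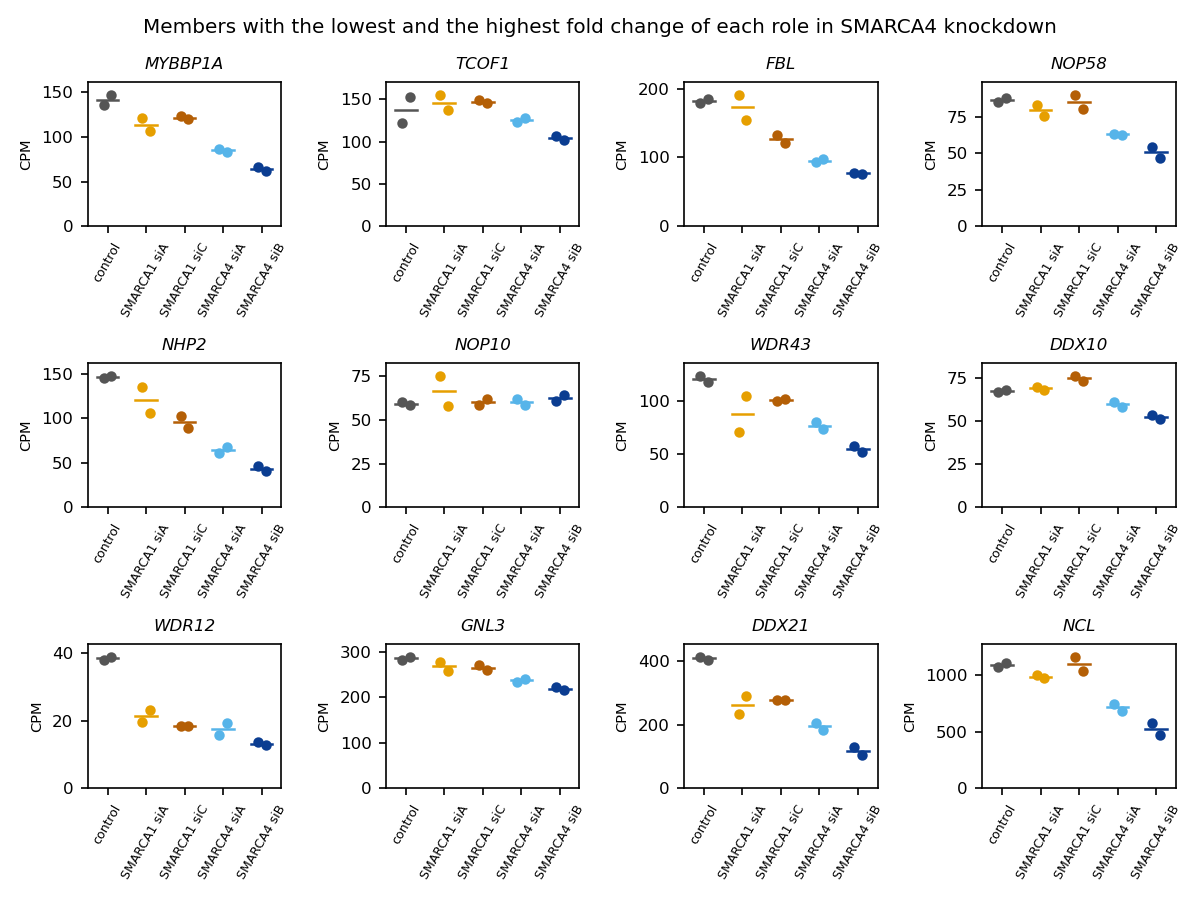
CPM (vertical axes, from 0) in each library of the members with the lowest and the highest log2 fold change of each role in *SMARCA4* knockdown, with 1 point per library and a line at the mean of the 2 libraries of a condition. *DDX21* steps down from 415 and 405 CPM in the controls to 130 and 105 CPM with *SMARCA4* siRNA B, whereas *NOP10* stays between 58.3 and 75.4 CPM in all 10 libraries.

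The 5 abundant or multifunctional nucleolar proteins had the lowest median of all roles in *SMARCA4* knockdown (-1.02) and were all called. *DDX21*, a nucleolar RNA helicase (chr10:68956170-68985068), was at 415 and 405 CPM in the controls, 235 and 291 with *SMARCA1* siRNA A, 279 and 278 with *SMARCA1* siRNA C, 206 and 184 with *SMARCA4* siRNA A and 130 and 105 with *SMARCA4* siRNA B. The 3 sets of libraries did not overlap, and those of the *SMARCA4* siRNAs did not overlap each other. Its log2 fold change was -1.43 ± 0.12 (SE, adjusted p = 1.67e-05) in *SMARCA4* and -0.60 (adjusted p = 0.00242) in *SMARCA1* knockdown. *NCL*, nucleolin (chr2:231453531-231483641), was at 1070 and 1104 CPM in the controls, 998 and 975 with *SMARCA1* siRNA A, 1163 and 1039 with *SMARCA1* siRNA C, 749 and 682 with *SMARCA4* siRNA A and 580 and 475 with *SMARCA4* siRNA B. The *SMARCA1* libraries lay on both sides of the controls, and the log2 fold changes were -0.82 (adjusted p = 0.000189) and -0.06 (adjusted p = 0.666). *NPM1*, nucleophosmin, was at -1.02 and -0.33, both called, and *PA2G4*, a growth-regulating protein also known as EBP1, at -0.84 (called) and -0.19 (not called). The counts of the 17 *NPM1* pseudogenes with any count came to 1.21% of those of *NPM1*. *LYAR*, a cell growth regulator of the nucleolus, was at -1.23 (adjusted p = 0.000158) and 0.06 (adjusted p = 0.786), the largest difference between the knockdowns of all members (-1.29, adjusted p = 0.00014).

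Per kilobase of exon, the members with the highest control level were *NCL* (122 RPKM), *NOP10* (117), *NPM1* (113), *NOLC1* (104) and *NHP2* (102), and the median over members was 23.0 RPKM. *NOP10* and *NHP2* thus started from nearly the same level per length. Together the 39 members took 0.615% and 0.637% of all counts in the control libraries, between 0.5% and 0.559% in *SMARCA1* knockdown and between 0.307% and 0.401% in *SMARCA4* knockdown. The mean share in *SMARCA4* knockdown was 0.574 times that of the controls, and 0.592 times without *NCL* and *NPM1*. In *SMARCA1* knockdown these ratios were 0.845 and 0.834.

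The siRNAs of a target were compared with each other. With *SMARCA4* siRNA B 5 members were lower than with siRNA A and 0 were higher, against 3.04% and 3.17% of all genes. These were *LYAR* (-0.89, adjusted p = 0.0234), *DDX21* (-0.73, adjusted p = 0.0199), *RRS1* (-0.62, adjusted p = 0.0295), *DKC1* (-0.58, adjusted p = 0.0192) and *NHP2* (-0.58, adjusted p = 0.0396). Below zero were 33 of the 39 members, with a median of -0.34, beside 8649 of all 16899 genes tested, with a median of -0.01. *LYAR*, for example, was at 40.9 and 41.6 CPM in the controls, 25.2 and 22.7 with siRNA A and 15.2 and 10.5 with siRNA B. *SMARCA4* itself was lower with siRNA B by a log2 fold change of -0.60 (adjusted p = 0.0485) and *MYC* by -1.48 (adjusted p = 0.00551). The count of 5 was not stable to single libraries. It became 21 and 23 without *SMARCA1* siRNA A replicate 1 or 2, 1 and 0 without siRNA C replicate 1 or 2, 3 and 0 without *SMARCA4* siRNA A replicate 1 or 2, 2 and 0 without siRNA B replicate 1 or 2, and 2 without either control. Against the control, 31 members were called lower with siRNA A (15.8% of all genes) and 37 with siRNA B (21.9%).

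Between *SMARCA1* siRNA C and siRNA A the edgeR test called 0 members lower or higher, against 0% and 0.0118% of all genes. At an unadjusted p below 0.05 it found 2 members, *NHP2* and *FBL*, both lower with siRNA C, where 17.1% of all genes were below it, and DESeq2 called 1 member. Without *SMARCA1* siRNA A replicate 2 the count was 6, of which 4 were lower. Against the control, 8 members were called lower with *SMARCA1* siRNA A (16.3% of all genes) and 11 with siRNA C (21.5%). The median difference between the siRNAs over the members was -0.01.

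The level of *MYC* was set beside the members in each library. *MYC* was at 318 and 328 CPM in the controls, 178 and 188 with *SMARCA1* siRNA A, 164 and 171 with *SMARCA1* siRNA C, 87.4 and 102 with *SMARCA4* siRNA A and 42.2 and 25.8 with *SMARCA4* siRNA B. The median log2 level of the 39 members relative to the control mean, in the same order, was -0.02 and 0.02, -0.11 and -0.19, -0.15 and -0.24, -0.61 and -0.65, and -0.91 and -0.95. The controls, the *SMARCA1* libraries, those of *SMARCA4* siRNA A and those of *SMARCA4* siRNA B thus stood in the same order in both measures, whereas within *SMARCA1* knockdown and between the libraries of *SMARCA4* siRNA A the order differed. The libraries form separate clusters of fewer than 6, so no correlation is given, pooled or within a cluster. The summed level of the interferon response genes, in the same order, was 433.2 and 438.8, 26980 and 24800, 46860 and 47340, 35130 and 17500, and 45950 and 38900 CPM. It was lowest in the controls, where the members were highest, and for each target it was higher with the siRNA that had the lower member medians on average, while the libraries of *SMARCA1* siRNA C had the highest sums beside member medians of -0.15 and -0.24.

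**Figure D4:**
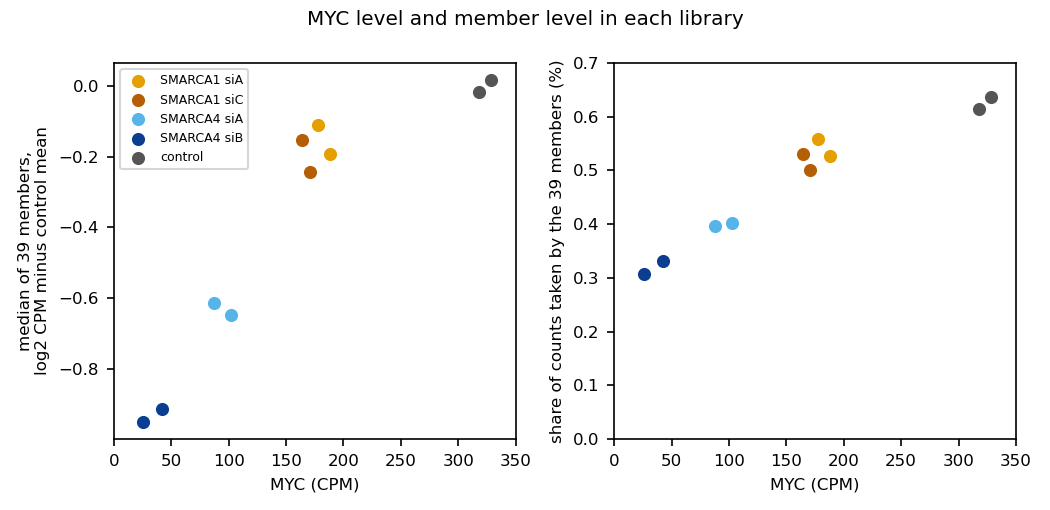
*MYC* in CPM (horizontal axes) against the median log2 level of the 39 members relative to the control mean (left) and their share of all counts in percent (right), with 1 point per library coloured by condition. From the controls to *SMARCA4* siRNA B, *MYC* goes from 328 to 25.8 CPM and the share of the members from 0.637% to 0.307%.

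Gene by gene, 24 of the 39 members had group means in the order of *MYC* (control, *SMARCA1* knockdown, *SMARCA4* siRNA A, *SMARCA4* siRNA B, from high to low), a pattern shown by 9.75% of all genes tested. For 11 members every *SMARCA4* library lay below every *SMARCA1* library and every *SMARCA1* library below both controls, which 2.41% of all genes showed. These were *MYBBP1A*, *NOP56*, *DKC1*, *NHP2*, *NOLC1*, *BYSL*, *PNO1*, *RRS1*, *GNL3*, *NPM1* and *DDX21*. Outside both patterns were *POLR1B*, *TCOF1*, *GAR1*, *NOP10*, *UTP20*, *HEATR1*, *RRP12*, *NAT10*, *DDX10*, *NOP2*, *PES1*, *WDR74*, *NIP7*, *PPAN* and *LYAR*. The 17 members with an E-box had a median log2 fold change of -0.90 in *SMARCA4* knockdown (from -1.43 to 0.05) and the 15 without one a median of -0.82 (from -1.46 to -0.27), so both sets spanned nearly the same range, and *NOP10*, with 2 E-boxes, was the member at the top of it.

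The other genes of the pathway moved less uniformly. A further 122 genes for RNA polymerase I, subunit assembly and the rRNA-processing exosome were set beside the members. In *SMARCA4* knockdown 69 were called lower and 6 higher (median -0.35), against 22.3% and 22.8% of all genes. In *SMARCA1* knockdown 26 were lower and 19 higher (median -0.01), against 23% and 23.8%, so neither share was above that of all genes. Between *SMARCA4* and *SMARCA1* knockdown 70 were lower and 0 higher, against 19.1% and 16.3% of all genes. The largest called falls in *SMARCA4* knockdown were those of *EXOSC5*, an exosome subunit (-1.66), *RRP15*, a large subunit factor (-1.47), *WDR3*, a processome protein (-1.33), *RCL1*, a factor for early cleavage of the precursor (-1.28), and *POLR1G*, a subunit of RNA polymerase I (-1.24). The largest called rises were those of *EFL1*, a GTPase of late large subunit maturation (0.95), *ZNF622*, a cytoplasmic factor for the same subunit (0.47), *EXOSC10*, a catalytic exosome subunit (0.35), *DDX52*, a helicase (0.34), and *TAF1C*, of the RNA polymerase I selectivity factor (0.33).

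In *SMARCA1* knockdown the largest falls were those of *RRP1B* (-1.07), *MDN1*, the AAA ATPase midasin (-1.06), *RRP15* (-0.99), *GNL3L* (-0.81) and *POLR1F* (-0.74), and the largest rises those of *EFL1* (1.19), *DDX24* (0.79), *DHX37* (0.77), *ZNF622* (0.63) and *AATF* (0.57). *RRP15* was thus among the largest falls, and *EFL1* and *ZNF622* among the largest rises, in both knockdowns, which share the control libraries. Of the genes that rose, *EFL1* was at a mean of 38.2 CPM in the controls, 74.5 CPM in *SMARCA4* and 88.1 CPM in *SMARCA1* knockdown.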

How the data were processed

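RNA-seq of 10 VCaP libraries was used. The authors aligned the reads with HISAT2 2.1.0, per the submitters' processing notes, and counted them per gene with featureCounts 1.5.2, and the deposited values are raw counts of whole reads for 59386 genes without normalization. Whether the counting used strand is not given in the sources used here. Groups and replicate numbers were taken from the sample titles.

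In R 4.3.3, edgeR 4.0.16 was run on all 10 libraries as 5 groups. Low genes were removed with filterByExpr (minimum count 10, minimum total count 15), library sizes were scaled by TMM, and contrasts were tested by quasi-likelihood. A knockdown is the mean of its 2 siRNA groups minus the control group. P-values were adjusted by Benjamini-Hochberg over all 16899 genes tested, and an adjusted p below 0.05 was a call. CPM use TMM-scaled totals, and RPKM divide these by the counted exon length. A floor of 3 counts was 0.0865 to 0.126 CPM, for counting error only. In simulated data on 16899 genes, of 100 genes each, 92 were recovered at a log2 fold change of 1 and 14 at 0.5 in *SMARCA4* knockdown. Far fewer genes were changed there than were called in the real libraries, which makes the adjustment stricter. These shares therefore do not give the recovery in the real libraries. DESeq2 1.42.0, other filters, normalizations and sample sets, a replicate block and leaving out each library were tried.

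The members and lists were chosen with earlier results of these data known. Each role's members with the lowest and highest log2 fold change in *SMARCA4* knockdown, at a mean of at least 1 CPM, are given by library, with *MYC*, *SMARCA4* and *SMARCA1*. For the other pathway genes the 5 largest called falls and rises are named. *UTP20*, *PES1* and *LYAR* were added after their values were seen. Promoters and genes were matched by symbol to RefSeq and GENCODE tables of GRCh38. For the check of replicate pairing, the deviations of same-numbered libraries correlated between -0.103 and 0.362, above 0.1 in 3 of 10 pairs of groups. The correlation was 0.362 between the 2 *SMARCA4* siRNAs. For *SMARCA1* siRNA A it was 0.266 with *SMARCA4* siRNA B and 0.125 with *SMARCA4* siRNA A. As the other pairs of groups were not above 0.1, the numbers were not taken to pair the libraries in the main fit.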

Additional observations from a re-analysis of the deposited data

Results flagged for a closer look

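For 5 members the change differed between the siRNAs against *SMARCA4*, by the direct test of siRNA B against siRNA A (edgeR). The log2 difference was -0.89 for *LYAR*, -0.73 for *DDX21*, -0.62 for *RRS1*, -0.58 for *DKC1* and -0.58 for *NHP2*. Without *SMARCA4* siRNA A replicate 2, *SMARCA4* siRNA B replicate 2 or *SMARCA1* siRNA C replicate 2, none of them passed.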

How the results depend on the processing

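Of the values of single members and of their medians under single alternatives, 3250 kept their direction and their side of the threshold. A call was lost in 135 and gained in 86. The 2 that reversed and the 1 that shifted without reversing were medians over the members, given below. The count of members called ranged over all alternatives from 30 to 37 in *SMARCA4* knockdown and from 26 to 35 for *SMARCA4* against *SMARCA1* knockdown. In *SMARCA1* knockdown it was 5 with a log2 fold change beyond 0.5 required, and between 5 and 18 (5 and 17 lower) with a library left out. For *SMARCA4* siRNA B against siRNA A it was 9 with DESeq2, 12 with no filter on low counts and between 0 and 23 with a library left out. For *SMARCA1* siRNA C against siRNA A it was 1 with DESeq2, 1 with no filter and between 0 and 6 (0 and 4 lower) with a library left out, and the median of the members ranged from -0.0587 to 0.0289, turning positive without *SMARCA1* siRNA A replicate 1 (0.0289) or siRNA C replicate 2 (0.0078). The median in *SMARCA1* knockdown was -0.22 without *SMARCA1* siRNA A replicate 1. The cause was not tested. With the replicate block (replicate numbers taken as paired) the calls in *SMARCA4* knockdown numbered 36, in *SMARCA1* knockdown 14 and for siRNA B against siRNA A of *SMARCA4* 7, against 35, 13 and 5 without it. *NOP2*, with 119 counts in all libraries, had the fewest counts of the members.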
